A study of Mus musculus with 20 samples.

Results

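A high fat diet was compared with a low fat control diet in non pregnant female C57BL/6J mice, with RNA of mesenteric visceral fat measured on Affymetrix whole-genome arrays. The comparison uses 10 of the 20 arrays of the series: 5 from HF non pregnant mice, fed 58% fat (Research Diets 12331), and 5 from control non pregnant mice, fed 10% fat (Research Diets 12328), taken by the diet and pregnancy status in the array labels. The other 10 arrays come from 5 HF pregnant and 5 control pregnant mice of the same strain and diets at E18.5, and serve here as separate animals in which the same diet contrast can be read. Each array holds RNA of 1 mouse without pooling, and the mice came from different litters and mothers. The age label E18.5 stands on the non pregnant mice too. Besides fat content, the carbohydrate of the feeds differed, with sucrose in the HF diet and corn starch in the control diet, so fat and carbohydrate cannot be told apart. Visible lymph nodes had been cut from the fat before freezing.

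White fat takes up glucose and circulating lipid, makes fatty acids from glucose by de novo lipogenesis, and stores both as triglyceride. Lipogenesis starts with citrate leaving the mitochondrion, goes through acetyl-CoA, malonyl-CoA and palmitate, and ends in elongation and desaturation, and its genes are known to respond to insulin, glucose and dietary fat through the factors encoded by Srebf1 and Mlxipl. A sample of whole fat also holds blood vessels, fibroblasts, macrophages and lymphocytes. In such bulk RNA, fewer cells of a type and less RNA per cell cannot be told apart.

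All values are log2 of the deposited intensity, differences are HF minus control on that scale, and n is 5 mice per group. Array medians lay between intensities of 62.0 and 64.5, and between 18173 and 18797 probe sets per array exceeded an intensity of 100. A probe set entered the limma fit where 5 or more of the 20 arrays exceeded 100, which left 19802, and a gene is read at its brightest tested probe set, which gave 10603 genes. Adipocyte RNA was plain in every mouse: Adipoq, which encodes adiponectin, lay between 14.42 and 14.53 in control and between 13.81 and 14.51 in HF mice.

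Lymphocyte RNA differed widely between mice of the same group, and many of the differences below were smaller once it was taken into account. All 11 measured B cell markers and 12 of 13 T cell markers had a higher mean in HF mice. The B cell score, the mean log2 deviation of the markers from the average of the 10 mice, was -2.19, -2.0, 0.04, -0.59 and 0.70 in control mice 1 to 5 and 1.64, -0.61, 0.52, 0.14 and 2.36 in HF mice 1 to 5. Control mice 1 and 2 were thus lowest and HF mice 1 and 5 highest, with overlap among the other 6. HF mouse 5 also had the lowest adipocyte score, -0.89 where the other 9 mice lay between -0.09 and 0.40. The first principal component of the 10 arrays held 59.5% of the variance and placed control mice 1 and 2 at one end and HF mice 1 and 5 at the other. List results are therefore also given without HF mouse 5 and with the mean of the B and T cell markers, the lymphocyte score, as a covariate in the fit, where these moved them. Pancreatic acinar genes (2 of 15 measured) were high in control mouse 4 alone, at a score of 4.45, and the erythroid gene Alas2 in control mouse 3 alone, at 3.77.

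**Figure D1:**
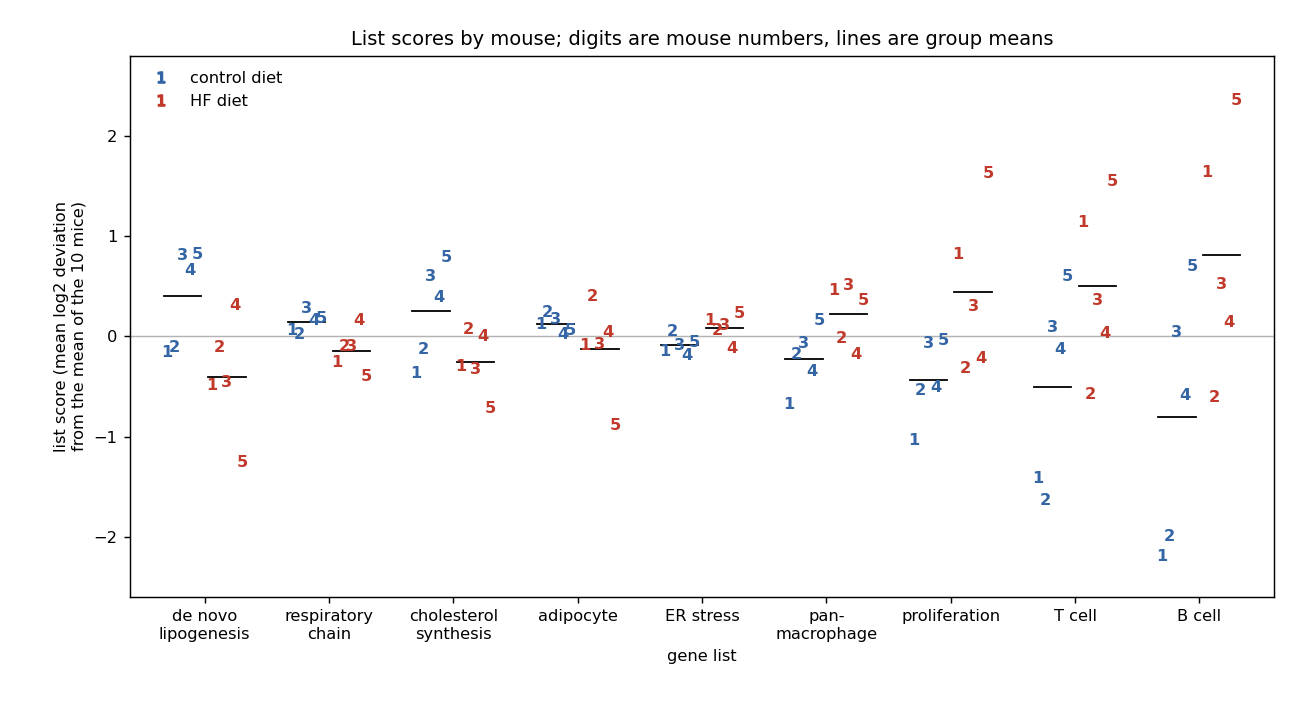
List scores by mouse on the vertical axis (mean log2 deviation from the average of the 10 non pregnant mice) for 9 gene lists on the horizontal axis. Digits are mouse numbers, blue for control and red for HF, and black lines are group means. HF mouse 5 was lowest for de novo lipogenesis (-1.26) and adipocyte markers (-0.89) and highest for B cell markers (2.36), and HF mouse 4 lay among the control mice for de novo lipogenesis (0.30).

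Across all probe sets, the spread within groups was large against the difference between diets. Limma called 0 of 19802 probe sets (0%) at an adjusted p under 0.05, and the smallest adjusted p, 0.281, was shared by 4352 of them. At an unadjusted p under 0.05, 2071 probe sets had a higher and 1429 a lower mean in the HF group. Read by gene, these were 990 higher (9.34% of 10603) and 837 lower (7.89%), and the 5 values of each group did not overlap for 133 genes higher (1.25%) and 91 lower (0.858%). The share of unadjusted calls that were higher, 59.2% of probe sets, turned to 38.8% when each array was centred on its median (592 genes higher, 1226 lower) and to 45.4% under repeated quantile normalization (715 higher, 1087 lower), while the median difference over all genes moved from -0.01 to -0.06 and -0.04. Counts of higher and lower genes over the whole array therefore have no settled balance. No named gene below passed the adjusted threshold, and each exact permutation p is two-sided, takes in every way of dividing the 10 mice into 5 and 5, cannot go below 0.00794, and is not adjusted for the number of genes named.

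Genes of de novo lipogenesis were lower in HF mice as a group. All 22 measured genes of the list had a lower mean, 16 of them with an unadjusted p under 0.05, and the median difference was -0.78 where that of all genes was -0.01. No gene of the list separated the groups completely. The list score was -0.16, -0.11, 0.81, 0.66 and 0.82 in control mice 1 to 5 and -0.49, -0.11, -0.46, 0.30 and -1.26 in HF mice 1 to 5. Control mice 1 and 2 were thus as low as HF mouse 2, and HF mouse 4 was above them. Without HF mouse 5 the median was -0.57, with 8 genes under 0.05 (2.35% of all genes lower), and with the lymphocyte score as covariate -0.65, with 9 genes (1.8% of all genes lower). The direction was then less uniform, with 19 genes lower and 3 higher without HF mouse 5, and 20 lower and 2 higher with the score.

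Elovl6, which elongates palmitate to stearate, had the largest difference of the list. Its log2 intensity was 11.86, 10.89, 13.87, 13.60 and 13.65 in control mice 1 to 5 and 10.34, 10.87, 10.20, 12.99 and 9.17 in HF mice 1 to 5. It differed by -2.06 ± 0.62 (SE, exact permutation p = 0.0476, n = 5), about 0.24 of the control level on the linear scale. HF mouse 4 lay with the controls, and the other 4 HF mice lay below the lowest control mouse, HF mouse 2 narrowly.

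Slc25a1, the mitochondrial carrier that exports citrate for fatty acid synthesis, read 11.02, 10.58, 12.62, 12.17 and 12.47 in control and 10.15, 10.56, 9.97, 11.64 and 9.17 in HF mice, a difference of -1.47 ± 0.43 (SE, exact permutation p = 0.0476, n = 5). Acly, which splits that citrate into acetyl-CoA, went from 13.57 ± 1.01 to 12.57 ± 0.64 (mean ± SD, n = 5), a difference of -1.0 that did not pass the exact permutation test (p = 0.0952). Both acetyl-CoA carboxylases were lower. Acaca, which serves synthesis, differed by -1.18 and Acacb, whose product restrains fatty acid oxidation, by -1.55 (exact permutation p = 0.0476 for each, n = 5). The synthase itself, Fasn, read 13.63, 13.49, 14.12, 14.30 and 14.17 in control and 12.92, 13.52, 13.15, 14.03 and 12.24 in HF mice, a difference of -0.77 ± 0.26 (SE, exact permutation p = 0.0476, n = 5). NADPH for these steps comes in part from malic enzyme, Me1, which differed by -1.18 ± 0.39 (SE, exact permutation p = 0.0635, n = 5), and from the pentose phosphate pathway, where transketolase, Tkt, differed by -0.80 ± 0.22 (SE, exact permutation p = 0.0317, n = 5). Thrsp, a regulator of lipogenesis abundant in fat, differed by -0.85 ± 0.26 (SE, exact permutation p = 0.0317, n = 5).

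One member lay at the top of the scale. Scd1, the main stearoyl-CoA desaturase of fat, lay between 14.56 and 14.87 in all 10 mice, close to the highest log2 intensity of any probe set on these arrays, 14.89, and its difference was -0.05 ± 0.06 (SE, exact permutation p = 0.508, n = 5). A difference in this gene cannot be read well so close to that ceiling. Of the transcription factors, Mlxipl (ChREBP) differed by -1.22 (exact permutation p = 0.0556), with HF mice 2 and 4 in the control range. Srebf1 (SREBP-1) differed by -0.68 (exact permutation p = 0.0714), with HF mouse 4 above every control mouse and the other 4 HF mice below.

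**Figure D2:**
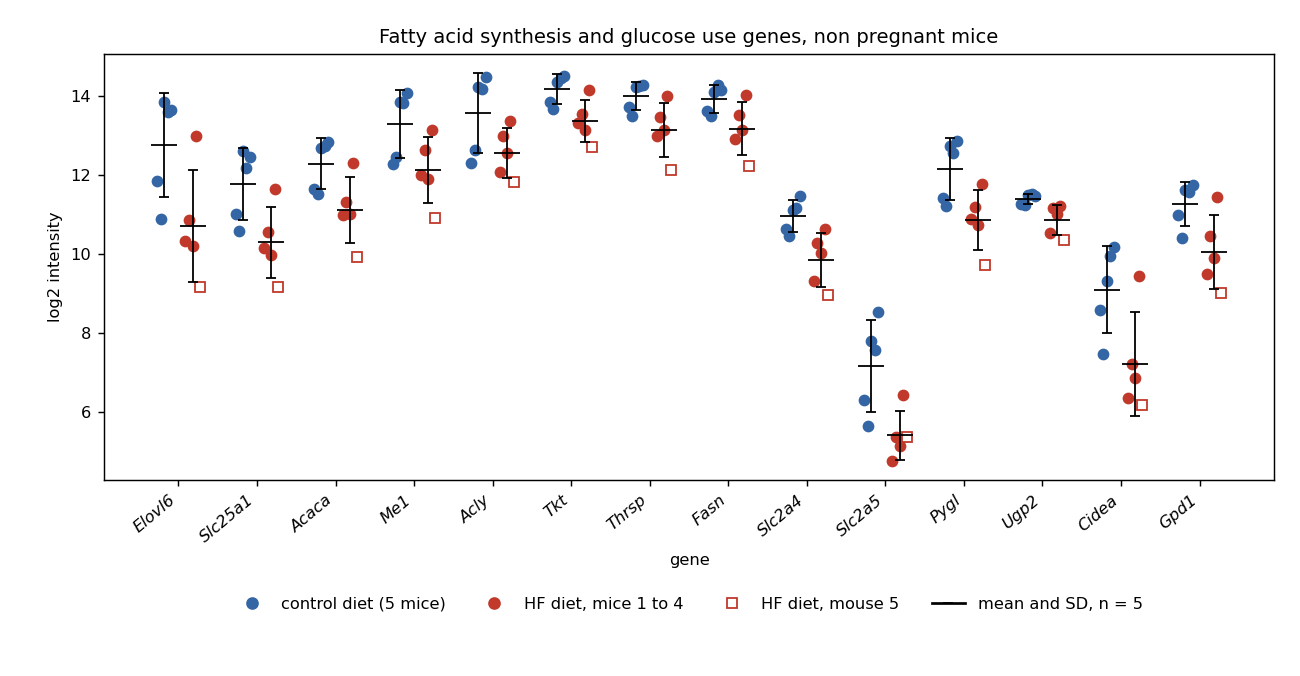
Log2 intensity on the vertical axis for 14 genes of fatty acid synthesis, glucose use and triglyceride storage on the horizontal axis. Circles are single mice (blue control, red HF), open squares are HF mouse 5, and black bars are the mean and SD of 5 mice. HF means were lower for every gene drawn, but only Ugp2 had HF values (10.35 to 11.22) wholly below the control values (11.23 to 11.51).

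The promoters of a lipogenic gene pair are shown because the factors named above act at such sequences together with factors that bind CCAAT and GC boxes. Each window lies mostly before the annotated start of the gene and ends shortly after it, and is written 5′ to 3′ on the gene's strand, from RefSeq (build GRCm38.p6). Capitals mark matches on either strand to the CCAAT box, to CACGTG (an E-box), to GGGCGG (a GC box) and to the sterol regulatory element TCACNCCAC, and overlapping matches run together. Fasn lies on the minus strand at chr11:120824498-120824797 and Slc25a1 on the minus strand at chr16:17928170-17928469.
Fasn: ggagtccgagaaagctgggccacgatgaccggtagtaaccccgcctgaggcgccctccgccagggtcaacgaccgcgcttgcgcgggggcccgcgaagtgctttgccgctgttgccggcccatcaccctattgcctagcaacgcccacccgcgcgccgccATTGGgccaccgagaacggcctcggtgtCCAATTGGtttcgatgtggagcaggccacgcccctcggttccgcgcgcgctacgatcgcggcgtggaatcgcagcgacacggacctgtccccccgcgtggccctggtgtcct
Slc25a1: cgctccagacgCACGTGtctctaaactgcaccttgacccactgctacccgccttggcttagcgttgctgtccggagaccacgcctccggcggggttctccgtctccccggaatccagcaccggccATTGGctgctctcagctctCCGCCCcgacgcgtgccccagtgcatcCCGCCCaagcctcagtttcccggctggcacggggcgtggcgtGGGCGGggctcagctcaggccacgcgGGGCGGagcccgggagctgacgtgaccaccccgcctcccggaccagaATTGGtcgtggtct
The Fasn window held 3 CCAAT matches and none of the other letters, and the Slc25a1 window held 2 CCAAT, 1 CACGTG and 4 GGGCGG matches. Of the 19 lipogenic genes with a promoter in the table, 13 (68.4%) held CCAAT, against 41.1% of all 27025 genes, 12 (63.2%) held GGGCGG against 38.2%, 3 (15.8%) held CACGTG against 8.09%, and 1 (5.26%) held TCACNCCAC against 1.44%. In the respiratory chain list, also lower in HF mice, CCAAT stood in 10 of 33 promoters (30.3%) and GGGCGG in 13 (39.4%). These matches are letters in a window and were not tested against the diet.

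Genes that bring glucose in and store it were lower as well. In the list of glucose, fructose and glycogen genes, 23 of 26 were lower, 16 with an unadjusted p under 0.05, and the median was -0.54 (-0.41 with 8 such genes without HF mouse 5, -0.32 with 6 with the lymphocyte score). Slc2a4, the insulin-responsive glucose transporter GLUT4, read 10.64, 10.47, 11.11, 11.17 and 11.47 in control and 9.32, 10.27, 10.02, 10.64 and 8.97 in HF mice. Only HF mouse 4 reached into the control range, and the difference was -1.13 ± 0.32 (SE, exact permutation p = 0.0238, n = 5). Slc2a5, the fructose transporter GLUT5, showed the largest difference of the list, -1.76 ± 0.46 (SE, exact permutation p = 0.0238, n = 5), but all 5 HF mice and control mice 1 and 2 lay under log2 6.64, the intensity of 100. With intensities under 100 set to 100 the difference was -0.79. Pygl, a glycogen phosphorylase, differed by -1.30 ± 0.39 (SE, exact permutation p = 0.0397, n = 5) and Aldoa, the glycolytic aldolase, by -0.51 ± 0.18 (SE, exact permutation p = 0.0397, n = 5). Ugp2, which makes UDP-glucose for glycogen, was the 1 gene of the list whose groups did not overlap, at 11.27, 11.23, 11.49, 11.51 and 11.48 in control and 10.54, 11.17, 11.02, 11.22 and 10.35 in HF mice (difference -0.54 ± 0.17 SE, exact permutation p = 0.00794, n = 5).

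Triglyceride synthesis and storage genes leaned the same way, less uniformly. Of 22 genes, 20 were lower, 7 with an unadjusted p under 0.05, and 1 of the 2 higher genes had such a p, with a median of -0.47. That median was -0.27 without HF mouse 5 and -0.14 with the lymphocyte score, with 2 lower genes under 0.05 in each. With the score 16 genes were lower and 6 higher. Cidea, a lipid droplet protein also used as a marker of brown and beige fat, read 8.59, 7.47, 9.30, 9.94 and 10.17 in control and 6.34, 7.21, 6.85, 9.44 and 6.17 in HF mice, a difference of -1.89 ± 0.57 (SE, exact permutation p = 0.0476, n = 5). HF mouse 4 was again in the control range while the other 4 HF mice were below every control mouse. Gpd1, which makes glycerol 3-phosphate, differed by -1.21, Agpat2, which adds the next fatty acid, by -1.13, and the acyltransferases of the last step, Dgat1 and Dgat2, by -0.86 and -0.61. Exact permutation p values were 0.0397, 0.0476, 0.0635 and 0.0714 for these 4 genes. Mogat2, a monoacylglycerol acyltransferase, differed by -1.12 (exact permutation p = 0.0873). Lpin2, a phosphatidate phosphatase, was the 1 higher gene with an unadjusted p under 0.05, at 8.21 ± 0.13 in control and 8.60 ± 0.31 in HF mice (mean ± SD, exact permutation p = 0.0238, n = 5). For uptake of fatty acids, 15 of 17 genes were lower, but only 2 with an unadjusted p under 0.05 (7.89% of all genes lower). These were Slc27a1, a fatty acid transporter, and Fabp5, a fatty acid carrier, with differences of -1.36 and -0.63 (exact permutation p = 0.0794 and 0.103). This list had no settled direction, since its median of -0.24 was -0.10 without HF mouse 5 and 0.0063 with the lymphocyte score, where 8 genes were lower and 9 higher.

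Genes of lipid breakdown had lower means too, those of lipolysis without a settled direction. In the list of lipolysis genes, 10 of 11 were lower, 2 with an unadjusted p under 0.05, with a median of -0.53 that was -0.27 without HF mouse 5 and -0.15 with the lymphocyte score. Those 2 were Prkaca, the catalytic subunit of protein kinase A, at -0.54 ± 0.19 (SE, exact permutation p = 0.0317, n = 5), and Hcar2, a receptor that restrains lipolysis, at -0.86 ± 0.32 (SE, exact permutation p = 0.0238, n = 5). Only 1 lipolysis gene had such a p without HF mouse 5. With the lymphocyte score 0 had one, and 6 genes were lower and 5 higher. In fatty acid oxidation 24 of 25 genes were lower, 8 with an unadjusted p under 0.05, with a median of -0.44. Ehhadh, a peroxisomal enzyme of that pathway, differed by -0.92 ± 0.38 (SE, exact permutation p = 0.0159, n = 5) and Hadhb, a subunit of the mitochondrial trifunctional protein, by -0.50 ± 0.21 (SE, exact permutation p = 0.0556, n = 5). Without HF mouse 5 the median was -0.27 and 1 of the 25 had an unadjusted p under 0.05, and with the lymphocyte score the median was -0.21 and 0 had one.

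Mitochondrial genes were lower by small amounts and very evenly. In the respiratory chain and ATP synthase, 42 of 43 genes were lower, 34 with an unadjusted p under 0.05 and 3 without overlap, yet the largest lower difference was -0.48, and the median was -0.29. This median was -0.23 without HF mouse 5, with 9 genes under 0.05, and -0.16 with the lymphocyte score, where 41 of 43 were still lower but only 5 had an unadjusted p under 0.05. Atp5pb, a stator subunit of ATP synthase, read 12.74, 12.71, 12.87, 12.79 and 12.79 in control and 12.50, 12.69, 12.53, 12.67 and 12.47 in HF mice, all 5 HF values below all 5 control values, with a difference of only -0.21 ± 0.07 (SE, exact permutation p = 0.00794, n = 5). Ndufb5 of complex I likewise did not overlap (11.82 to 12.18 in control, 11.50 to 11.80 in HF mice), whereas Ndufc1, Ndufb9 and Uqcrc1 of complexes I and III overlapped at differences of -0.37, -0.48 and -0.39. Pyruvate dehydrogenase and citric acid cycle genes were lower in 21 of 22 cases, 15 with an unadjusted p under 0.05 at a median of -0.34. Without HF mouse 5 the median was -0.27 with 7 such genes, and with the lymphocyte score -0.22 with 4. The dehydrogenase that feeds acetyl-CoA to both the cycle and lipogenesis showed the larger differences, -0.69 ± 0.22 for Pdha1 and -1.02 ± 0.37 for Dlat (SE, exact permutation p = 0.0397 and 0.0635, n = 5), against -0.32 for Suclg1 and -0.37 for Idh3b of the cycle. In mitochondrial ribosome and import genes 22 of 28 were lower, 5 with an unadjusted p under 0.05, with a median of -0.20, and 0 had such a p without HF mouse 5 or with the lymphocyte score.

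Breakdown of branched-chain amino acids, a source of acetyl-CoA in fat, followed. All 21 genes were lower, 8 with an unadjusted p under 0.05, with a median of -0.43. Without HF mouse 5 the median was -0.28 and with the lymphocyte score -0.18, and only 1 gene had such a p in each. With the score 18 genes were lower and 3 higher. Bckdha, of the branched-chain ketoacid dehydrogenase, read 10.23, 10.25, 11.01, 10.54 and 10.46 in control and 9.66, 9.93, 9.64, 10.35 and 8.96 in HF mice, with HF mouse 4 alone in the control range and a difference of -0.79 ± 0.26 (SE, exact permutation p = 0.0238, n = 5). The transaminase Bcat2 differed by -0.61 (-0.28 with intensities under 100 set to 100) and the inhibitory kinase Bckdk by -0.39 (exact permutation p = 0.0317 and 0.0238).

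Cholesterol synthesis, the other branch that uses cytosolic acetyl-CoA, had 17 of 19 genes lower, 9 with an unadjusted p under 0.05, and a median of -0.64. The group means hid a split among control mice, with list scores of -0.37, -0.13, 0.60, 0.39 and 0.79 in control mice 1 to 5 and -0.30, 0.07, -0.33, -0.01 and -0.72 in HF mice 1 to 5. Control mouse 1 was below HF mice 1 to 4, and control mice 3 to 5 were above all HF mice. Pmvk, Fdft1 and Lss, enzymes from mevalonate to lanosterol, differed by -0.88, -0.70 and -1.0, and Dhcr7 and Tm7sf2, reductases of the last steps, by -0.71 and -0.86. Exact permutation p values for these 5 genes ran from 0.0476 to 0.0952. Without HF mouse 5, 2 of the 19 genes had an unadjusted p under 0.05 (median -0.50), and with the lymphocyte score 1 had (median -0.43). All 16 cholesterol genes with a promoter in the table held CCAAT (100%) and 15 (93.8%) held GGGCGG.

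**Figure D3:**
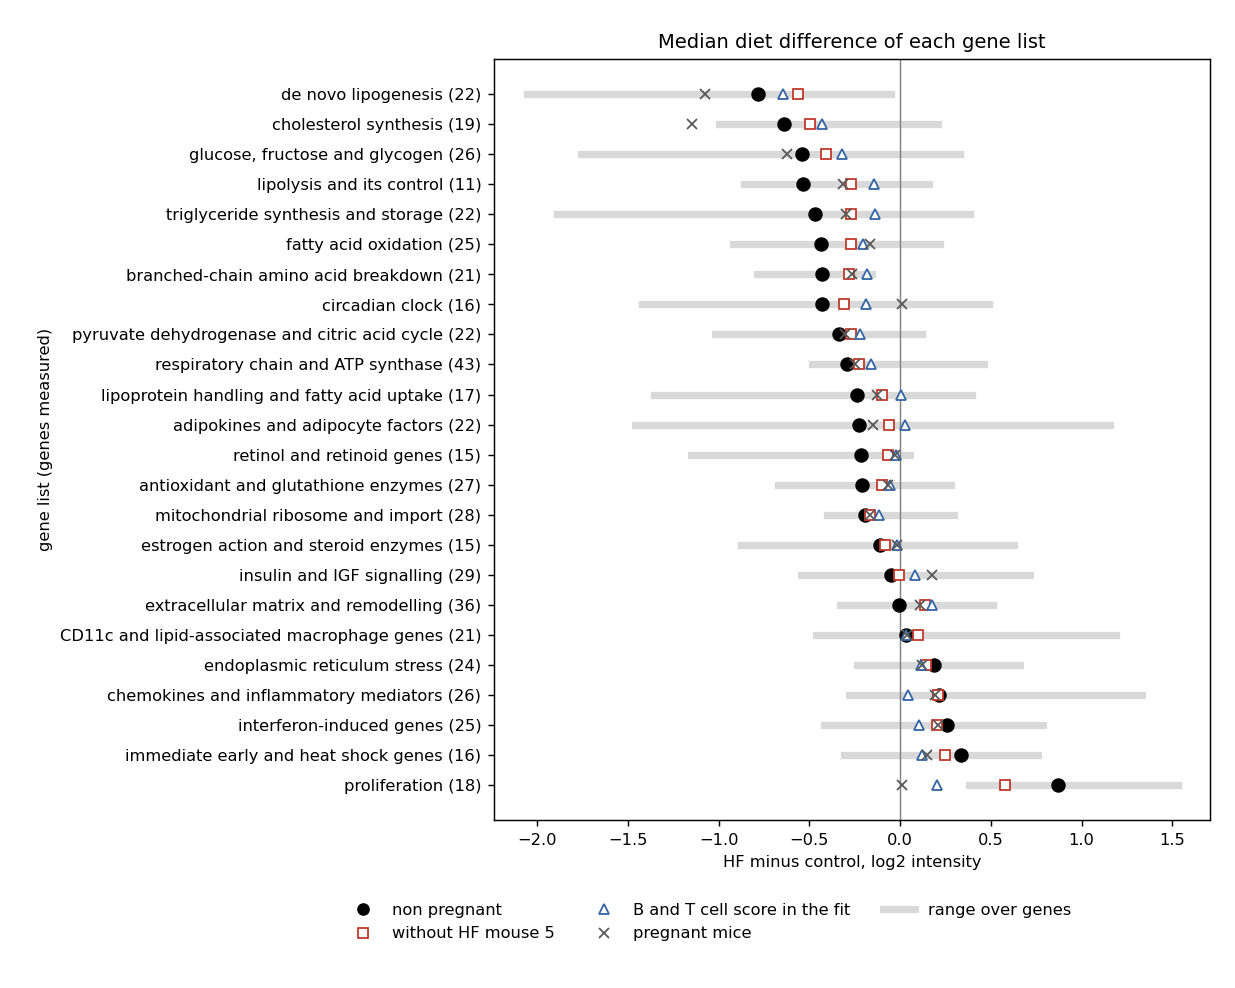
Median HF minus control difference in log2 intensity (horizontal axis) for each list of genes of shared function, with the number of genes measured. Black dots are the non pregnant mice, open squares the fit without HF mouse 5, open triangles the fit with the B and T cell score, crosses the pregnant mice, and grey bars the range over genes in non pregnant mice. De novo lipogenesis ran from -0.78 to -0.57 without HF mouse 5, while proliferation went from 0.87 to 0.21 with the B and T cell score.

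Insulin signalling genes did not shift as a list (19 of 29 lower, median -0.05), but single members differed. Foxo1, the transcription factor that insulin keeps out of the nucleus, read 9.72, 9.97, 10.18, 9.68 and 9.72 in control and 10.29, 10.13, 10.37, 10.04 and 10.57 in HF mice. Only control mouse 3 reached into the HF range, and its difference was 0.43 ± 0.11 (SE, exact permutation p = 0.0238, n = 5), 0.36 without HF mouse 5 and 0.33 with the lymphocyte score. Socs3, an inhibitor of cytokine and insulin signalling, read 8.41, 8.72, 9.38, 8.43 and 8.71 in control and 9.37, 9.45, 9.5, 9.16 and 9.74 in HF mice, with control mouse 3 in the HF range and a difference of 0.71 ± 0.24 (SE, exact permutation p = 0.0238, n = 5). Irs1, the insulin receptor substrate, differed by -0.55 (exact permutation p = 0.0238) and by -0.30 without HF mouse 5, which read 9.57 where the other 9 mice were between 10.67 and 11.49. Mtor, the growth kinase, differed by -0.28 (exact permutation p = 0.0317).

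Of 22 adipokine and adipocyte factor genes, 16 were lower, 2 with an unadjusted p under 0.05 (7.89% of all genes lower), and 6 were higher. The median of -0.23 was -0.06 without HF mouse 5 and 0.03 with the lymphocyte score. Lep, which encodes leptin, read 9.40, 11.25, 10.02, 10.21 and 9.63 in control and 10.36, 11.92, 10.54, 9.57 and 9.73 in HF mice, with full overlap (difference 0.32 ± 0.60 SE, exact permutation p = 0.548, n = 5). Adipoq differed by -0.23 ± 0.12 (SE, exact permutation p = 0.0714, n = 5) and Rbp4, the retinol carrier, by -0.26 ± 0.29 (SE, exact permutation p = 0.373, n = 5). The acute phase genes Orm1 and Orm2 differed by -0.86 and -1.46 (exact permutation p = 0.0635 and 0.0476), but Orm2 was under an intensity of 100 in all 5 HF mice and in control mice 1 and 2. Igf1 and Igfbp3, insulin-like growth factor I and its carrier, differed by -0.03 ± 0.29 and 0.02 ± 0.27 (SE, exact permutation p = 0.881 and 0.984, n = 5).

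Several genes of estrogen action and retinol handling were lower in HF mice. Esr1, Hsd17b12 and Rdh11, like Me1, Fasn, Scd1, Dgat2, Orm1, Rbp4, Ccl2, Igf1 and Igfbp3, were named by the study from arrays of this series. The fold changes that the study listed for them compare pregnancy states within the HF diet, and so share the HF non pregnant group. The study sought genes that responded to diet and pregnancy jointly, and also labelled genes of interest on plots of HF against control diet. Those plots include the non pregnant mice, so the diet contrast read here may have entered the choice of these genes. Their values here are therefore no independent evidence. Esr1, the estrogen receptor alpha, read 10.44, 10.11, 10.51, 10.43 and 10.31 in control and 9.35, 9.70, 9.54, 10.36 and 8.70 in HF mice. It differed by -0.83 ± 0.34 (SE, exact permutation p = 0.0238, n = 5) and by -0.38 with the lymphocyte score. Hsd17b12, an enzyme of both estradiol formation and fatty acid elongation, differed by -0.79 and Hsd11b1, which regenerates active glucocorticoid, by -0.88 (exact permutation p = 0.0556 and 0.0635). Rdh11, a retinal reductase, differed by -1.16 ± 0.40 (SE, exact permutation p = 0.0714, n = 5) and by -1.15 with the lymphocyte score. Retsat, a retinol saturase, differed by -0.85 (exact permutation p = 0.0714), and the retinoic acid receptor Rarg, by only -0.27, without overlap between groups (exact permutation p = 0.00794). Over the lists, 14 of 15 retinoid genes and 11 of 15 estrogen and steroid genes were lower, 4 and 3 of them with an unadjusted p under 0.05. The retinoid median of -0.22 was -0.07 without HF mouse 5 and -0.02 with the lymphocyte score, where 9 genes were lower and 6 higher. The estrogen and steroid list kept 0 genes with such a p in either fit, with 9 lower and 6 higher under the lymphocyte score.

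The genes that were higher in HF mice included protein folding genes of the endoplasmic reticulum. In the list of endoplasmic reticulum stress, 18 of 24 genes were higher, 8 with an unadjusted p under 0.05 and 1 lower, with a median of 0.19 (0.14 without HF mouse 5, 0.11 with the lymphocyte score). Pdia6, a protein disulfide isomerase, read 10.45, 10.66, 10.45, 10.42 and 10.44 in control and 10.84, 10.74, 10.88, 10.49 and 10.94 in HF mice. Only control mouse 2 lay above an HF mouse, HF mouse 4, and the difference was 0.30 ± 0.08 (SE, exact permutation p = 0.0159, n = 5), 0.26 without HF mouse 5 and 0.29 with the lymphocyte score. Hspa5, the chaperone BiP, differed by 0.41 ± 0.14 (SE, exact permutation p = 0.0397, n = 5), Pdia4, a related isomerase, by 0.34 ± 0.11 (SE, exact permutation p = 0.0238, n = 5) and Sdf2l1, another resident of this compartment, by 0.66 ± 0.26 (SE, exact permutation p = 0.0397, n = 5). Atf4, the transcription factor of the integrated stress response, was the 1 gene without overlap, at 10.18 to 10.34 in control and 10.35 to 10.69 in HF mice (difference 0.27 ± 0.08 SE, exact permutation p = 0.00794, n = 5).

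The Hspa5 promoter is shown because CCAAT is part of the element through which this stress response acts. It lies on the plus strand at chr2:34771840-34772139 of GRCm38.p6, with the same letters in capitals as above.
Hspa5: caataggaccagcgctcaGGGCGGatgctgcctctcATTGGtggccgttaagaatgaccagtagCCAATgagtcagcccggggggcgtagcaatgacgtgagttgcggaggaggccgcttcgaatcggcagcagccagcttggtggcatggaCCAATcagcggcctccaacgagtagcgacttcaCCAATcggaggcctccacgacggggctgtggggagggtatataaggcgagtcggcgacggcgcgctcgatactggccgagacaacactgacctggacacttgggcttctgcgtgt
This window held 4 CCAAT and 1 GGGCGG matches. Of 21 genes of the endoplasmic reticulum list with a promoter in the table, 18 (85.7%) held CCAAT, 14 (66.7%) GGGCGG, 2 (9.52%) CACGTG and 1 (4.76%) TCACNCCAC, against the shares of all genes given above.

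Immediate early and heat shock genes were higher in 13 of 16 cases, 6 with an unadjusted p under 0.05, with a median of 0.33 that was 0.12 with the lymphocyte score. Zfp36, tristetraprolin, which speeds the decay of cytokine mRNAs, read 8.40, 8.61, 8.58, 8.34 and 8.88 in control and 9.44, 9.01, 9.19, 8.70 and 9.48 in HF mice, a difference of 0.60 ± 0.17 (SE, exact permutation p = 0.0159, n = 5). The chaperones Hspa8 and Hsph1 differed by 0.35 and 0.76 (exact permutation p = 0.0238 and 0.0476). Antioxidant and glutathione enzymes, by contrast, were lower in 23 of 27 cases, 8 with an unadjusted p under 0.05, at a median of -0.21 that was -0.10 without HF mouse 5, with 2 such genes, and -0.06 with the lymphocyte score, with 1. Gsta4, which clears lipid peroxidation products, differed by -0.58, the mitochondrial thioredoxin reductase Txnrd2 by -0.51 and Gpx4, which reduces lipid hydroperoxides, by -0.57 (exact permutation p = 0.0159, 0.0317 and 0.0397).

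**Figure D4:**
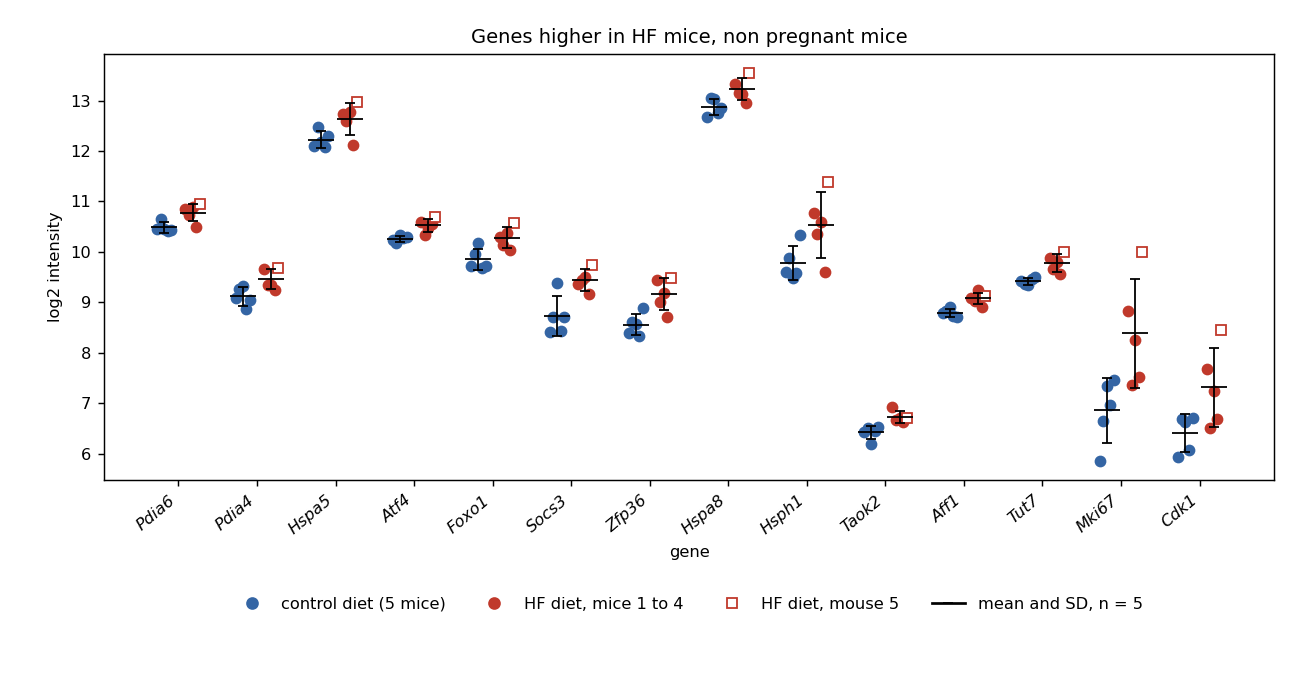
Log2 intensity on the vertical axis for 14 genes that were higher in HF non pregnant mice, on the horizontal axis. Circles are single mice (blue control, red HF), open squares are HF mouse 5, and black bars are the mean and SD of 5 mice. Atf4, Taok2, Aff1 and Tut7 had no overlap between groups, while the proliferation genes Mki67 and Cdk1 were highest in HF mice 1, 3 and 5.

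Macrophage and inflammation genes gave a mixed picture. Of 14 pan-macrophage markers 11 were higher, 1 with an unadjusted p under 0.05 (9.34% of all genes higher). This was Ms4a7, at 0.48 (exact permutation p = 0.0476). The median of the markers, 0.42, was 0.39 without HF mouse 5 and 0.04 with the lymphocyte score. Scores were -0.68 to 0.16 in control and -0.18 to 0.51 in HF mice. Resident macrophage markers had a median of -0.11, with Stab1, a scavenger receptor, at 0.36 (exact permutation p = 0.0873). Genes of CD11c and lipid-associated macrophages had a median of 0.03, with the lysosomal protease Ctsd at -0.46 and the cholesterol exporter Abcg1 at 0.57 (exact permutation p = 0.0714 and 0.0159). Vsig4, a complement receptor of tissue macrophages, was the gene with the largest difference among those without overlap, at 7.45, 8.0, 8.34, 7.17 and 7.23 in control and 6.6, 6.54, 7.07, 6.42 and 5.60 in HF mice (difference -1.19 ± 0.39 SE, exact permutation p = 0.00794, n = 5). HF mice 1, 2, 4 and 5 were under an intensity of 100, and with such values set to 100 the difference was -0.91. Of 26 chemokine and inflammation genes 18 were higher, 3 with an unadjusted p under 0.05 (9.34% of all genes higher). These were Cxcl12, a lymphocyte-attracting chemokine, at 1.0, Tgfb1, a cytokine, at 0.61, and Vcam1, an adhesion molecule, at 1.17 (exact permutation p = 0.0159, 0.0635 and 0.0556). With the lymphocyte score these 3 differences were 0.36, 0.23 and 0.25, and Tgfb1, under an intensity of 100 in every control mouse, differed by 0.21 with intensities under 100 set to 100. The median of the list, 0.22, was 0.21 without HF mouse 5, with 0 genes under 0.05, and 0.05 with the lymphocyte score, with 2. Ccl2, the monocyte chemokine, overlapped fully (difference 0.28 ± 0.25 SE, exact permutation p = 0.325, n = 5), and Tnf stayed under the filter and was not tested. Interferon-induced genes were higher in 21 of 25 cases, 4 with an unadjusted p under 0.05 (9.34% of all genes higher), with Irf7 at 0.46 and Bst2 at 0.38. The median of this list, 0.26, was 0.20 without HF mouse 5 and 0.10 with the lymphocyte score, with 0 genes under 0.05 in each.

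Lymphocyte and proliferation genes showed large differences and a large spread. Only 1 of 11 B cell markers and 0 of 13 T cell markers had an unadjusted p under 0.05 (9.34% of all genes higher). Plasma cell genes Jchain, which joins secreted antibodies, and Igha, the IgA heavy chain, were higher by 2.11 and 2.21 on average (exact permutation p = 0.0397 for each). For Jchain the control mice read 9.11, 7.76, 11.41, 10.91 and 12 and the HF mice 13.20, 11.12, 12.49, 11.81 and 13.09, so control mice 3 and 5 overlapped with HF mouse 2, and control mouse 5 also with HF mouse 4. Fcer2a, a receptor of follicular B cells, differed by 1.89 and Glycam1, a product of lymph node venules, by 2.73 (exact permutation p = 0.0714 and 0.0952). Glycam1 read 4.11 in control mouse 2 and 12.89 in HF mouse 5, the extremes of its range. All 18 proliferation genes were higher, 10 with an unadjusted p under 0.05, at a median of 0.87. That was 0.58 without HF mouse 5, with 0 genes under 0.05 (2.67% of all genes higher), and 0.21 with the lymphocyte score, with 1 gene (3.3% of all genes higher). Mki67, the antigen Ki-67 of cycling cells, differed by 1.53 (exact permutation p = 0.0159), Cdk1, the mitotic kinase, by 0.91, Ube2c, which drives mitotic protein turnover, by 0.91 and Pcna, the replication clamp, by 0.60 (exact permutation p = 0.0714, 0.0873 and 0.0397). The part of lymph node content in these differences was not tested. The covariate is made of B and T cell markers and leaned higher in HF mice itself, so it cannot separate nodes from other lymphocytes or from diet.

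Markers of other cell types differed less. Mesothelial markers were lower in 12 of 12 cases with 0 under an unadjusted p of 0.05 (median -0.36). That median was -0.21 without HF mouse 5 and -0.13 with the lymphocyte score, and in pregnant mice 11 of the 12 were higher (median 0.30). Smooth muscle and pericyte markers were lower in 12 of 14 cases (median -0.32, but 0.0993 without HF mouse 1, whose score was -1.71). Endothelial markers were split, 8 higher and 6 lower, with Pecam1 at 0.32 (exact permutation p = 0.0476). Extracellular matrix genes were split evenly, 18 higher and 18 lower, with 0 under 0.05 and a median of -0.0049. Brown and beige fat genes were lower in 7 of 8 cases (median -0.63), among them Cidea, described above, and Cox7a1, a respiratory subunit of heat-producing fat and muscle, at -0.64 (exact permutation p = 0.0476), or -0.39 with intensities under 100 set to 100. In this list 5 genes were lower and 3 higher without HF mouse 5 (median -0.42), and likewise with the lymphocyte score (median -0.34). Fibroblast and progenitor markers were lower in 8 of 11 cases (median -0.13), but in 4 of 11 without HF mouse 5 (median 0.05) or with the lymphocyte score (median 0.03), and Clec3b among them differed by -0.56 (exact permutation p = 0.0159). Fabp1, the fatty acid carrier of intestine and liver and 1 of 3 measured intestinal markers, was 2.30 higher on average, at 9.52, 8.08 and 7.59 in HF mice 1, 2 and 5 and under log2 6.64 in HF mice 3 and 4 and every control mouse (exact permutation p = 0.0794). With intensities under 100 set to 100 it was 1.05 higher, and the list of 3 had a median of 0.05 and a lowest difference of -0.05. Clock genes depend on the hour of collection and varied widely within groups. Dbp, an output gene of the clock, read 12.22, 8.69, 9.31, 12.16 and 10.53 in control and 7.74, 8.56, 8.50, 12.12 and 8.87 in HF mice (exact permutation p = 0.183). Cry2 and Nr1d1, repressors of the clock, differed by -0.59 and -0.78 (exact permutation p = 0.0397 and 0.0952).

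Ranked over all 10603 genes without regard to lists, the smallest p values on the lower side belonged to Fn3k, which removes sugar adducts from proteins, Zbtb8a, a zinc finger gene, Pth1r, the parathyroid hormone receptor, Dipk1b and Ctnna1, an adhesion protein. The groups did not overlap for Zbtb8a and Ctnna1, at -0.50 and -0.44. Fn3k read 6.97, 6.45, 7.54, 7.14 and 7.41 in control and 5.35, 5.89, 6.11, 6.76 and 5.47 in HF mice, with only HF mouse 4 above a control mouse (difference -1.18 ± 0.28 SE, exact permutation p = 0.0159, n = 5, adjusted p = 0.281 from limma). Control mouse 2 and HF mice 1, 2, 3 and 5 were under an intensity of 100, and with such values set to 100 the difference was -0.47. Pth1r differed by -1.65 ± 0.41 (SE, exact permutation p = 0.0238, n = 5). Slc2a5 and Tkt, described above, were in this group too, as were enzymes of aspartate and NAD: Nat8l, which makes N-acetylaspartate, at -1.40, Ddo, the D-aspartate oxidase, at -1.11 and Naprt, which makes NAD from nicotinic acid, at -0.40. The remaining 2 were Mapk8ip1, a scaffold of the JNK pathway, at -0.95 (-0.52 with intensities under 100 set to 100) and 1700037H04Rik at -1.18. Besides Vsig4, the largest differences among lower genes without overlap were those of Sgms2, which makes sphingomyelin (-1.0), Pex11a, which multiplies peroxisomes (-0.83), Afap1, an actin-binding protein (-0.73), Sirt5, a mitochondrial deacylase (-0.67), Wipi1 of autophagy (-0.65), the myelin protein Pmp22 (-0.61) and Ttc30b of the cilium (-0.59).

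On the higher side the smallest p values belonged to genes with small and even differences. Taok2, a stress-activated kinase, read 6.44, 6.51, 6.20, 6.45 and 6.54 in control and 6.92, 6.67, 6.71, 6.63 and 6.72 in HF mice, without overlap but around the intensity threshold (difference 0.30 ± 0.08 SE, exact permutation p = 0.00794, n = 5). With intensities under 100 set to 100 its difference was 0.09. Aff1, a scaffold of transcription elongation, Tut7, which adds uridine to RNA, and Cyp4f16, a cytochrome P450, also did not overlap, at differences of 0.28, 0.37 and 0.36. Adap2, Ftsj3, Rai14, Tob2 and Il1r1, the interleukin-1 receptor, differed by 0.29 to 0.47, and Pdia6, Foxo1 and Zfp36 complete the 12. Among higher genes without overlap the largest differences were those of Zfp52 (0.74), Gcnt1, which branches O-glycans (0.73), Slc44a2 (0.68), Il33, an alarm cytokine (0.66), Smg1, a kinase of mRNA surveillance (0.62), Ccdc88a (0.61), Fubp1 (0.60) and Prim1, the DNA primase subunit (0.60). With the lymphocyte score these 8 differences ran from 0.15 to 0.36, whereas Taok2, Aff1, Tut7 and Cyp4f16 kept 0.25 to 0.29.

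The pregnant mice, other animals on the same 2 diets, give the same contrast a further time. Both contrasts come from 1 normalization and 1 estimate of the spread, but share no mouse. Lymphocyte markers leaned higher in HF pregnant mice as well. B cell markers were higher for 11 of 11 genes (median 0.80) and T cell markers for 12 of 13 (median 0.35), with 0 under an unadjusted p of 0.05. The part of lymphocyte RNA in the shared directions below was not tested. Of the 837 genes lower in HF non pregnant mice, 764 (91.3%) were also lower in HF pregnant mice, where 40.9% of all genes were lower, and 335 (40%) had an unadjusted p under 0.05 there (8.32% of all genes lower). Of the 990 genes higher in HF non pregnant mice, 876 (88.5%) were higher in HF pregnant mice, where 59.1% of all genes were higher, but only 102 (10.3%) had an unadjusted p under 0.05 (5.17% of all genes higher). De novo lipogenesis had a median of -1.08 in pregnant mice, with 22 of 22 genes lower and 17 under 0.05, and cholesterol synthesis -1.15, with 16 of 19. The respiratory chain had -0.25, with 42 of 43 genes lower and 22 under 0.05. Proliferation genes, in contrast, had a median of 0.01 with 0 of 18 under 0.05. Fatty acid oxidation had -0.17 with 1 of 25 under 0.05, and endoplasmic reticulum stress 0.12 with 1 of 24.

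Whether the diet difference itself depended on pregnancy was read from the interaction term of the same fit. It called 0 of 19802 probe sets at an adjusted p under 0.05, with a smallest adjusted p of 0.201 from limma, and 332 genes (3.13%) had an unadjusted p under 0.05. The smallest belonged to Orm1, which differed by -0.86 in non pregnant and -4.07 in pregnant mice (difference of differences 3.21 ± 0.53 SE, adjusted p = 0.201 from limma, n = 5 per group). Among lipogenic genes 6 of 22 had an unadjusted interaction p under 0.05, among them Elovl6 (-2.06 in non pregnant, -4.87 in pregnant mice), Fasn (-0.77 and -1.86), Me1 (-1.18 and -2.61) and Acly (-1.0 and -2.41). In each of these 4 the non pregnant difference was the smaller one, with an adjusted interaction p of 0.933 from limma for each. Mast cell markers were lower for 4 of 4 genes in non pregnant mice (median -0.43) and higher in pregnant mice (0.71), with the mast cell protease Cma1 at -0.57 and 0.93. The difference between those values had an adjusted p of 0.933 from limma.

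**Figure D5:**
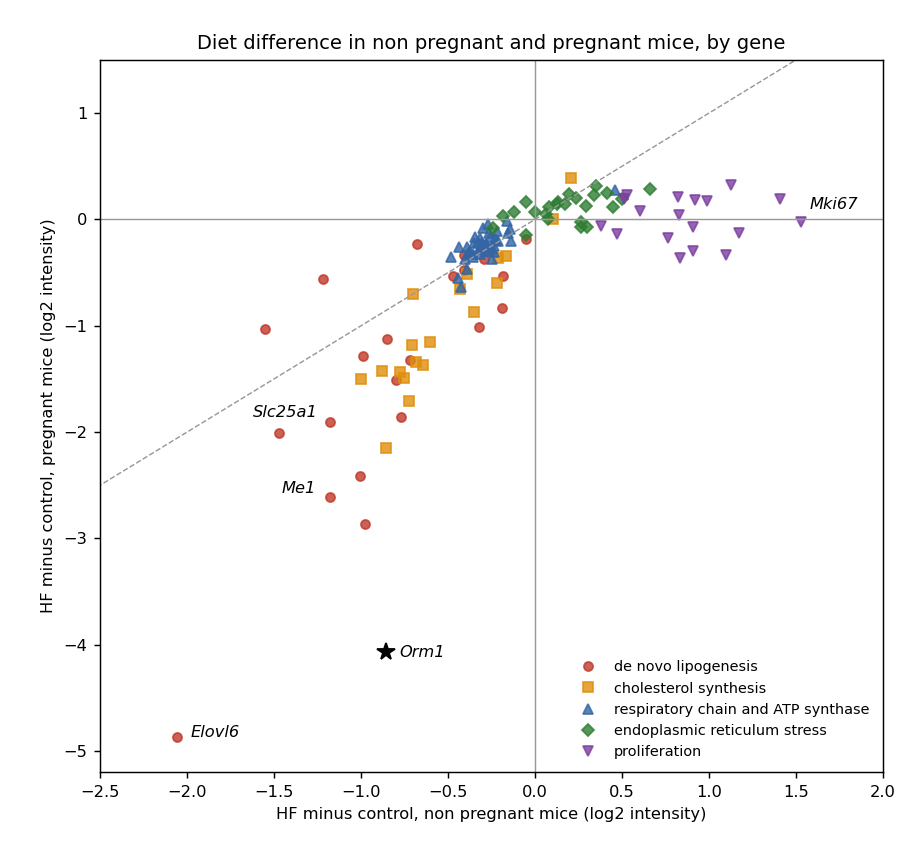
HF minus control difference in log2 intensity in non pregnant mice (horizontal axis) and pregnant mice (vertical axis) for genes of 5 lists and Orm1 (star), 1 symbol per gene, with equal differences on the dashed line. Lipogenic and cholesterol genes lay in the lower left, mostly under the line (Elovl6 at -2.06 and -4.87), respiratory chain genes close to it, and proliferation genes to the right at about 0 in pregnant mice (Mki67 at 1.53 and -0.02).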

How the data were processed

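Total RNA of 1 mouse was labelled with biotin and hybridized to each array. Per the labels, the authors ran RMA (background correction, quantile normalization and median polish) with affy in R 2.8.0 and deposited 1 linear intensity for each of 45101 probe sets. Here log2 of the deposited intensity was taken without further scaling, 64 control probe sets were left out, and probe sets above 100 in at least 5 of 20 arrays were kept (44.0%). Of 19802 kept probe sets, 17322 carry 1 gene symbol in the platform annotation, 531 several and 1949 none. Such normalization brings the arrays close to 1 distribution, so a shift of most genes in 1 direction may be hidden. Limma 3.58.1 (R 4.3.3) was fitted as 4 group means over all 20 arrays with default moderation, two-sided, with Benjamini-Hochberg adjustment over the kept probe sets, and was tested on simulated data. Figures were drawn with matplotlib 3.10.9. Single genes were also compared by exact permutation. The lymphocyte covariate is the mean log2 of the measured B and T cell markers.

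The comparison, the gene lists and the marker lists were chosen with earlier results of these data known. Genes are named because the study names them, because they had the 12 smallest p values in a direction, because they had the 8 largest differences without overlap in a direction, or because they were among the 5 smallest p values of a list. Acaca, Acacb, Acly, Mlxipl, Srebf1 and Lpin2 were named after their values were seen. Alternatives were no filter, other filters, a fit to the non pregnant arrays alone, array weights, median centring, repeated quantile normalization, trend and robust moderation, the mean of a gene's probe sets, intensities under 100 set to 100, the lymphocyte covariate, a replicate block, each array left out, and the criterion of the study's methods, a rank product p (25 array pairs, 100 permutations) joined to a 1.5-fold change. A further alternative joined an unadjusted limma p to the same fold change. RNA extraction is given as Trizol in the labels and as spin columns in the methods, and no scan date was at hand to serve as a batch. The number of arrays limits the precision.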

Additional observations from a re-analysis of the deposited data

Results flagged for a closer look

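In groups of 5 mice, the highest or lowest mouse was marked where its gap to the next was large against the range of the group by Dixon's criterion, which chance meets in about 5% of groups. Of 368 groups tested for the named genes and lists, 16 were marked, and 6 of them by HF mouse 5. HF mouse 5 stood low for Scd1 (14.56), Irs1 (9.57), Orm1 (9.96), Igf1 (10.48), Pex11a (7.72) and the single measured neutrophil marker (score -0.56). HF mouse 4 stood high for Dbp (12.12) and low for Adap2 (8.1). Control mouse 2 stood low for Dgat1 (10.65) and Ehhadh (8.25) and high for Pdia6 (10.66). Control mouse 5 stood high for Afap1 (11.73). Control mouse 3 stood high for branched-chain amino acid breakdown (score 0.44) and for the erythroid gene Alas2 (log2 intensity 11.08, score 3.77), and control mouse 4 for pancreatic acinar genes (score 4.45).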

How the results depend on the processing

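Limma gave 0 probe sets at an adjusted p under 0.05 (2071 higher and 1429 lower unadjusted), and also 0 under every alternative with this threshold other than no filter and array weights. Without the filter 1 was called, Spire2 (-0.42, adjusted p = 0.0239 from limma), whose intensities were all under 100, with 3139 higher and 3204 lower unadjusted. Array weights gave 7489 (unadjusted 5959 higher, 3624 lower) but put a weight of 11.34 on HF mouse 3, and without that mouse, an alternative chosen after seeing the data, 14285 (7757 and 6930), with 22.74 on HF mouse 1. The thresholds of the study's methods, a rank product p with a 1.5-fold change, gave 1715. An unadjusted limma p under 0.05 with the same fold change, which those methods do not name, gave 774. Centring on medians gave 1309 higher. The lymphocyte score gave 729 higher and 326 lower. Leaving out 1 array gave from 615 (without HF mouse 5) to 3702 (without HF mouse 2) higher and from 437 (without HF mouse 5) to 2283 (without HF mouse 4) lower.

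Deviations of mice of the same number had correlations of -0.62, 0.55, -0.58, 0.26 and 0.58, without a common sign. These values cannot tell whether the numbers pair the mice, since 1 principal component held 59.5% of the variance. The replicate block gave 1217 higher.

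With the lymphocyte score, which holds the B and T cell markers themselves, the medians were 0.2051 for proliferation, 0.0386 for pan-macrophage (0.8175 with array weights), 0.1039 for B cell and -0.104 for T cell markers. Beside the T cell markers, list medians that turned sign were, with the lymphocyte score, fatty acid uptake (0.0063), insulin signalling (0.0797), adipokines (0.028), extracellular matrix (0.1749), adipocyte (0.0063), resident macrophage (0.0623) and fibroblast markers (0.0297). With array weights, insulin signalling (0.074), adipokines (0.0461), extracellular matrix (0.3174), resident macrophage (0.3437), mesothelium (0.0543), fibroblast (0.1245) and smooth muscle markers (0.0689) turned. Without HF mouse 1 smooth muscle markers turned (0.0993), and without HF mouse 5 extracellular matrix (0.1384), resident macrophage (0.0789) and fibroblast markers (0.0473). The other turns lay in lists with a median between -0.1106 and 0.0478. Of the named genes, Scd1, Lep, Rbp4, Igf1 and Igfbp3 turned direction. Repeated quantile normalization gave 0.0153 for Scd1 and -0.0293 for Igfbp3, and centring gave -0.0297 for Igfbp3. The lymphocyte score gave 0.0274 for Rbp4, 0.3726 for Igf1 and -0.0023 for Igfbp3, and array weights gave 0.074 for Igf1. Leaving out 1 array gave -0.0716 to 9e-04 for Scd1, -0.0519 to 0.6093 for Lep, -0.1748 to 0.1892 for Igf1 and -0.1068 to 0.287 for Igfbp3. The cause was not tested.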
